A study of Mus musculus with 15 samples.

Results

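The heavy chains of the major histocompatibility complex (MHC) class I molecules were followed through the distal jejunum of mice that differed in genotype and diet. The 10 genes described are H2-K1, H2-K2, H2-D1, H2-Q1, H2-Q2, H2-Q4, H2-Q7, H2-Q10, H2-T3 and H2-T23, found by their mouse gene symbols among 26844 genes in the table, each on 1 row. Messenger RNA levels were given as normalised read counts for 15 libraries of male C57BL/6 mice aged 13 to 15 weeks. All of the mice ate a diet with 0.08% cholesterol. Wild-type (WT) mice without drug gave 4 libraries (WT control) and mice with a whole-body deletion of Aster-B and Aster-C gave 3 (KO control). On the same diet with 0.01% ezetimibe, which inhibits uptake of cholesterol by the transporter NPC1L1 in the gut, there were 4 WT libraries (WT ezetimibe) and 4 KO libraries (KO ezetimibe). Aster proteins, the products of the Gramd1 genes, carry plasma membrane cholesterol onward to the endoplasmic reticulum. Since the deletion was not limited to the gut, effects that begin in another organ are part of the KO groups, and the time on each diet was not stated in the sources used here.

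Class I heavy chains pair with beta-2-microglobulin in the endoplasmic reticulum, receive peptides pumped in by the TAP transporter with the help of tapasin, and carry them to the cell surface for inspection by CD8 T cells and natural killer cells. H2-K1 and H2-D1 encode the classical chains, which present peptides on nearly all cells. The Q and T regions encode non-classical chains with narrower roles: H2-Q7 gives rise to Qa-2, held in the membrane by a lipid anchor, H2-Q10 is known as a secreted chain made mainly by the liver, H2-T23 encodes Qa-1, which displays leader peptides to inhibitory receptors on natural killer cells, and H2-T3 encodes the TL antigen of intestinal epithelium, which binds CD8 on intraepithelial lymphocytes. Interferons raise classical class I genes through NLRC5 and through interferon regulatory factors (IRFs), which bind promoter elements beside a site for NF-kB.

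The members were chosen by gene family with results of these data in view, among them the normalised counts of H2-Q10, already known to be higher in ezetimibe-fed WT mice. The WT comparison of diets is therefore given as a description, with no test, and tests are given for the diets in KO mice and for KO against WT on each diet. The label fits 9 of the 10 genes. H2-K2 is annotated as a transcribed unprocessed pseudogene and not as a protein-coding gene, so its values count RNA from a copy of a heavy chain gene.

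The promoters are shown first, because the known control of classical class I genes runs through elements there. RefSeq promoter sequences (GRCm38.p6) were found for 8 of the 10 members, and the 250 bases before the first listed start were searched on both strands. The IRF core AANNGAAA, which 21.6% of 27025 promoters hold, was matched in all 8, and in 6 of them the letters on the coding strand are TTTCACTT. The 31 bases that end with that match are shown for these 6, with capitals marking the IRF core and any match to the NF-kB consensus.
H2-K1: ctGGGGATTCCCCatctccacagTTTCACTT
H2-D1: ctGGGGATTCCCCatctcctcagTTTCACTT
H2-Q4: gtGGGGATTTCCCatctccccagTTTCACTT
H2-Q7: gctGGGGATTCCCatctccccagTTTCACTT
H2-Q10: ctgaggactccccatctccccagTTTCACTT
H2-T3: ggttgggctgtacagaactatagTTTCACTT
The windows lie at chr17:34000430-34000460 (minus strand) for H2-K1, chr17:35262921-35262951 (plus strand) for H2-D1, chr17:35379441-35379471 (plus) for H2-Q4, chr17:35439019-35439049 (plus) for H2-Q7, chr17:35469911-35469941 (plus) for H2-Q10 and chr17:36190270-36190300 (minus) for H2-T3. The NF-kB consensus, found in 7.01% of promoters, was matched in H2-K1, H2-D1, H2-Q4 and H2-Q7 and not in H2-Q10 or H2-T3. Counted from 1 at the first base of the 11-base stretch GGGGATTCCCC of H2-K1, the H2-Q10 window carries G2A and T6C, and the H2-Q4 window carries C8T and still matches the consensus.

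Over the whole 250 bases the promoter of H2-Q10, the member with the largest difference between diets, is 82.6% identical to that of H2-K1 in the part where they align (161 of 195 columns). Both are printed to show what they share and where they part, with capitals for matches to the IRF core, the NF-kB consensus, the cyclic AMP response element core TGACG (17.9% of promoters) and CCAAT (34.5%).
H2-K1: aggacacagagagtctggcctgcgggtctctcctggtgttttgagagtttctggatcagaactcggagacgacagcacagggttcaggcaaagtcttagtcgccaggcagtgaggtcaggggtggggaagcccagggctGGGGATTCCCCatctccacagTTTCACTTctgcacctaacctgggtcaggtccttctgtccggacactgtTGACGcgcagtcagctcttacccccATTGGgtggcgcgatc
H2-Q10: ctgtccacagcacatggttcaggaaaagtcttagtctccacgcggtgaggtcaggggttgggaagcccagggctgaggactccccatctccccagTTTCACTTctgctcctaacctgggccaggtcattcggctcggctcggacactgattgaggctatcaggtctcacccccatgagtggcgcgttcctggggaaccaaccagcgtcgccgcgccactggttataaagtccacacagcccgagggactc
The H2-K1 sequence is chr17:34000348-34000597 (minus strand) and that of H2-Q10 chr17:35469839-35470088 (plus strand). All 4 kinds of match were present together in H2-K1, H2-D1, H2-Q4 and H2-Q7, a combination held by 25 of 27025 promoters (0.0925%), and H2-Q10 and H2-T3 held only the IRF core. H2-T23 was the only one of the 8 with the longer interferon-stimulated response element, GAAA, any 2 bases and GAAA (3.04% of promoters), and none held the sterol response element TCACNCCAC (1.04%). The RefSeq starts used here differ from the GENCODE gene ends for some members: the H2-D1 window lies inside the GENCODE gene and the H2-T3 window overlaps its end. A match is a description of letters and not a tested site, and no match says only that these letters are not in this window.

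**Figure D1:**
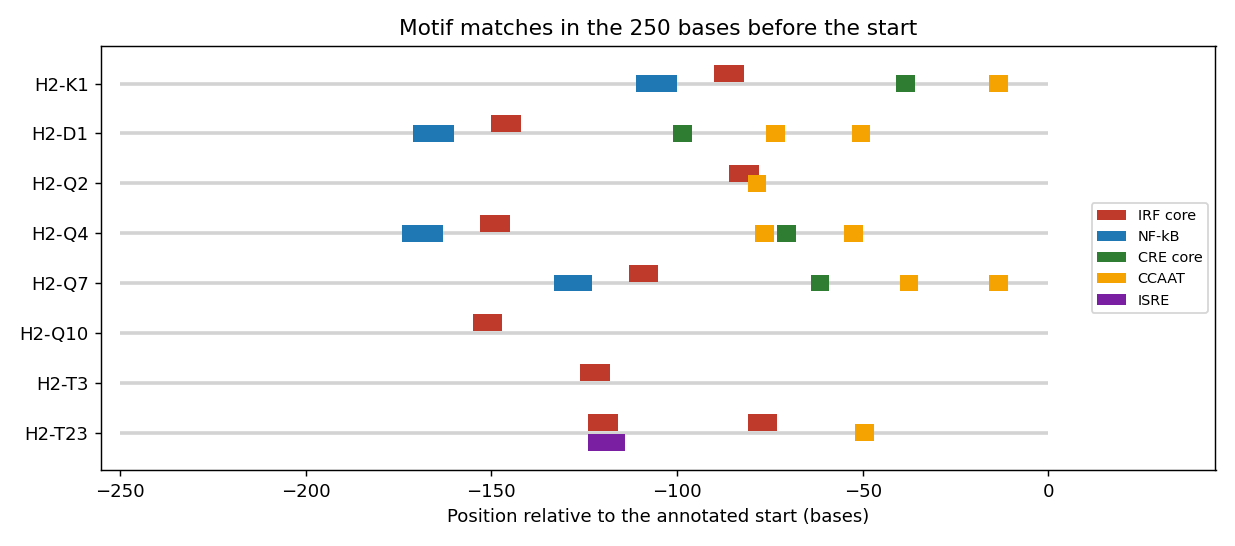
Positions of motif matches (coloured blocks) in the 250 bases before the annotated start of 8 class I genes, with the start at 0 on the horizontal axis. H2-K1, H2-D1, H2-Q4 and H2-Q7 carry an NF-kB block next to the IRF block, whereas H2-Q10 and H2-T3 carry an IRF block alone.

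Whole reads could be recovered from the normalised counts and summed to between 13855034 and 19307079 per library, of which the 10 genes took 0.452% to 0.711%. The deleted genes followed the labels. Gramd1c was at 1383 ± 332 in WT control (SD, n = 4) and 143 ± 44.4 in KO control (n = 3), and at 1211 ± 138 and 123 ± 37.0 on ezetimibe (n = 4 each). Gramd1b was at 3178 ± 868 and 1146 ± 160, and at 3241 ± 385 and 1837 ± 167. Summed enterocyte markers (10 of 10 tested, none at 0 in every library of a group) ranged from 645993 to 894598 in WT control and from 812088 to 881230 in KO control. On ezetimibe they ranged from 655304 to 779558 in WT and from 812886 to 1044380 in KO, without overlap. Of all tested genes, 5.09% were higher in KO without overlap there, and limma called none of the 10 markers. Between the diets in KO mice 6 of the 10 log2 differences were above 0 and 4 below. There limma called none and DESeq2 called 1 lower, beside 542 of 14288 genes. The part of the enterocyte markers in the class I differences was not tested. KO control replicate 1 stood apart: its summed MHC class II genes were at 11021, against 33462 and 38463 in the other KO control libraries and at least 42318 in WT control.

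Levels per kilobase of the longest coding transcript (for H2-K2, the longest transcript) put H2-K1 first. In WT control it stood at 17748 ± 2847 normalised counts per kb (SD, n = 4), followed by H2-Q2 at 13139 ± 2213, H2-D1 at 8759 ± 1516, H2-T23 at 4879 ± 731, H2-Q1 at 2155 ± 481 and H2-T3 at 1274 ± 92.3. The lower members were H2-Q4 at 516 ± 63.3, H2-Q7 at 221 ± 49.3, H2-K2 at 45.4 ± 2.13 and H2-Q10 at 32.1 ± 9.05. Of neighbours in this order, the library ranges overlapped between H2-K1 (15216 to 21100) and H2-Q2 (10370 to 15242) and between no other pair. The order was the same in all 4 groups except at the bottom, where H2-Q10 stood below H2-K2 on the control diet and above it on ezetimibe, at 169 ± 19.4 against 79.2 ± 10.6 per kb in WT and 187 ± 23.8 against 108 ± 16.0 in KO (n = 4 each). With the union of all exons as the length, H2-D1 stood above H2-Q2 in WT ezetimibe, H2-K2 stood above H2-Q7 in both KO groups, and H2-Q10 stood below H2-K2 in KO ezetimibe (85.7 against 98.7 per kb).

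**Figure D2:**
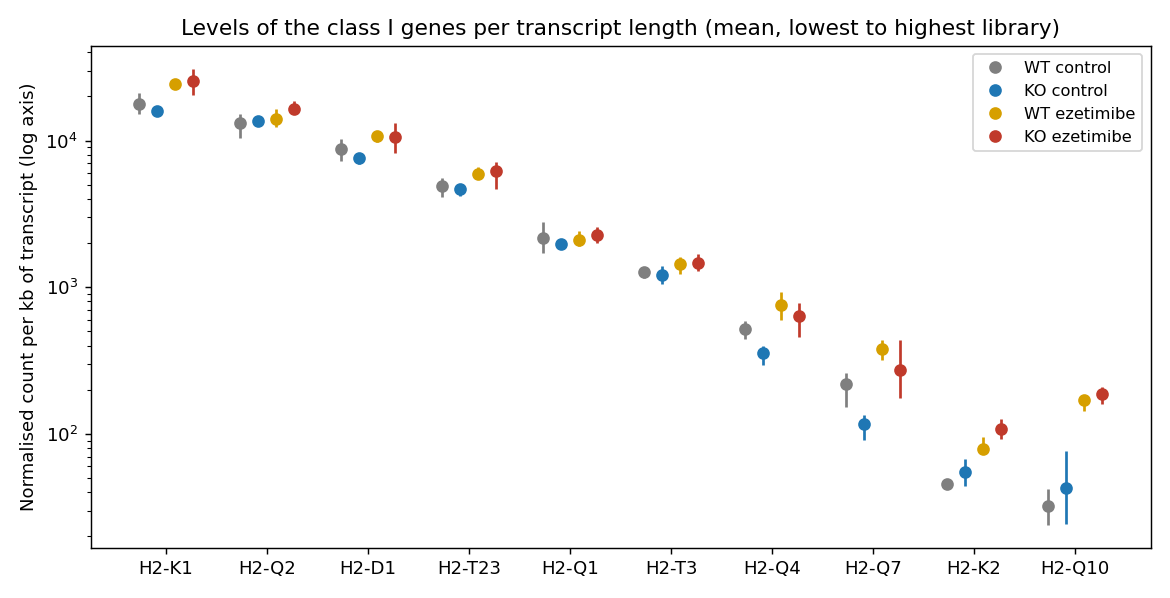
Normalised counts per kb of the longest transcript (log axis) for the 10 genes in the 4 groups, with points for group means and lines from the lowest to the highest library. H2-K1 is highest and H2-Q10 lowest in WT control (17748 and 32.1), and the H2-Q10 points separate by diet.

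The 10 genes lie on chromosome 17 in mm10 (GENCODE M21), in the order K, D, Q, T. Parts of their sequence are near copies of each other, so reads may have been shared or lost in counting. Of all 50-base words in its transcripts, H2-T3 shared 0.926% with another gene, H2-K2 9.38%, H2-K1 9.63%, H2-D1 12.8%, H2-T23 14.5%, H2-Q1 15.0%, H2-Q2 16.1%, H2-Q10 19.1%, H2-Q7 26.5% and H2-Q4 36.4%. H2-Q10 shared most with H2-Q7 (14.0%), and H2-Q4 overlaps the gene model Gm11131 and shared 15.3% of its words with it. Values of H2-Q4, H2-Q7 and H2-Q10 are the least certain of the set for that reason, and the treatment of multiply mapped reads was not stated in the sources used here.

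Class I RNA was higher in KO mice on ezetimibe than in KO mice on the control diet. Of the 10 genes 3 rose (H2-Q10, H2-K2 and H2-Q4) and none fell, by limma with Benjamini-Hochberg adjustment at 0.05, where 0.434% of 14299 tested genes were called higher. All 10 log2 differences were above 0, with a median of 0.55 beside 0.01 over all tested genes. For 6 genes (H2-K1, H2-K2, H2-Q2, H2-Q4, H2-Q7 and H2-Q10) every KO ezetimibe library lay above every KO control library, which held for 8.64% of all tested genes. In WT mice 9 of 10 differences were above 0, with a median of 0.39 beside -0.01 over all genes, and 5 genes (H2-K1, H2-K2, H2-Q4, H2-Q7 and H2-Q10) had no overlap between diets beside 2.26% of all genes, from which nothing is read because the choice of members used this comparison. In bulk tissue, fewer cells of a type and less RNA per cell cannot be told apart.

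The number of members called in KO mice was small and moved with single libraries. It was 1 (H2-Q10) without KO control replicate 1, KO control replicate 2 or KO ezetimibe replicate 3. Those 3 fits called 4, 7 and 7 of 14299 genes higher, against 62 in the main fit. It was 6 without KO ezetimibe replicate 4, where 278 of 14299 genes were called higher. The number of members called thus moved along with the number over all genes. DESeq2 on the recovered reads called 6 of 10, all higher (H2-Q10, H2-K2, H2-Q4, H2-K1, H2-D1 and H2-Q7), where it called 4.29% of tested genes higher.

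**Figure D3:**
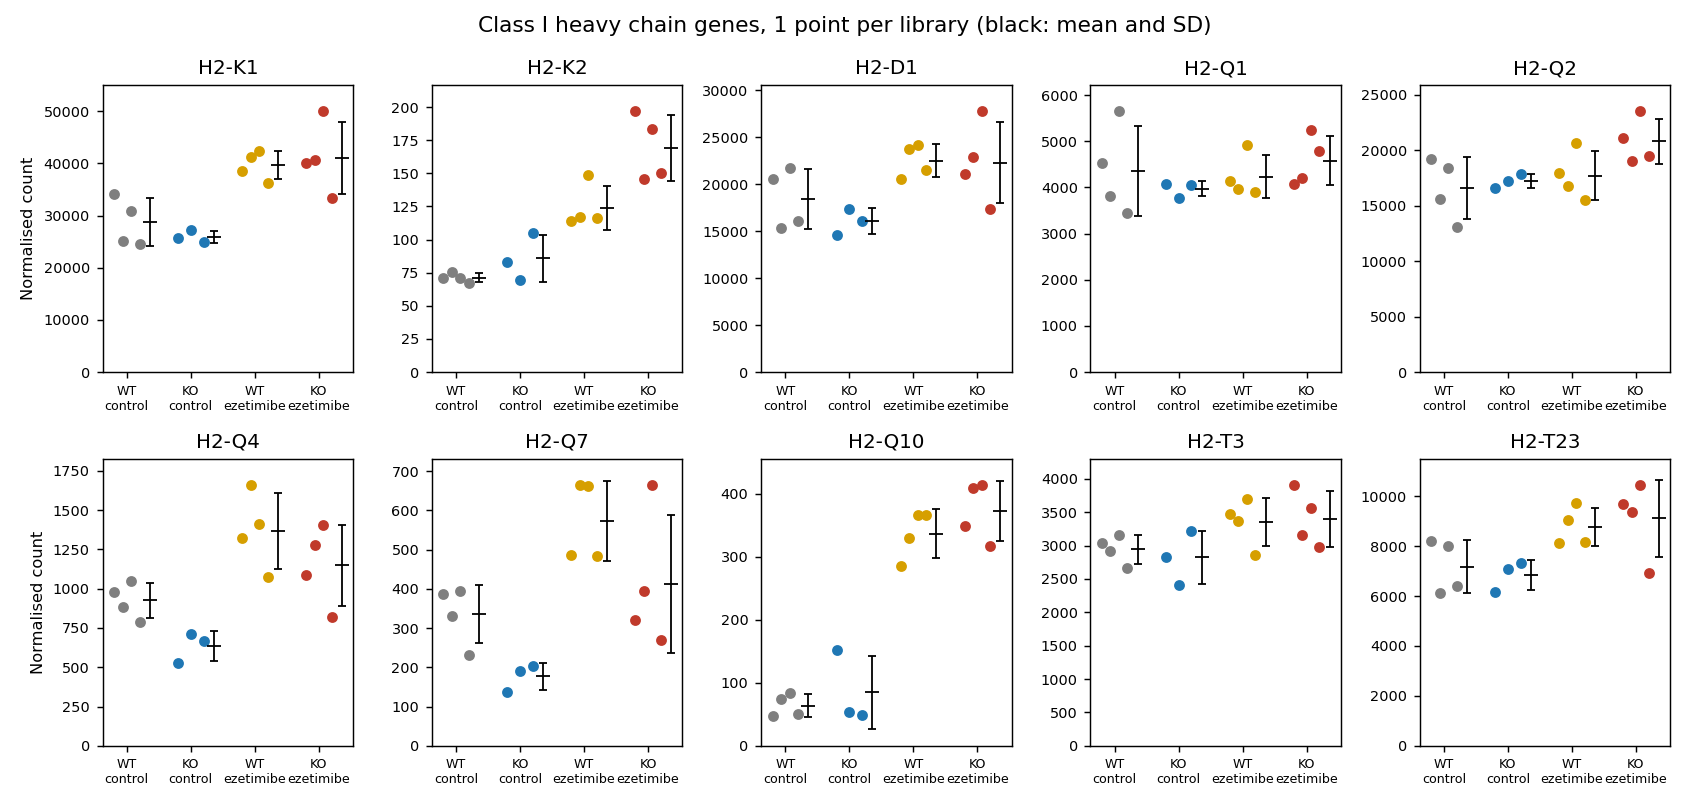
Normalised counts (linear axis from 0) of each class I gene in each library, in 4 groups, with the group mean and SD in black. H2-Q10 separates the diets in both genotypes, with KO control replicate 1 (152) between the other control libraries and the ezetimibe libraries, whereas H2-Q1 and H2-T3 overlap across all groups.

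H2-Q10 (ENSMUSG00000067235, chr17:35470089-35474563, plus strand) had the largest difference of the set. In WT control its normalised counts were 47.7, 73.6, 84.5 and 49.9, and in WT ezetimibe 285, 331, 367 and 366. In KO control they were 152, 54.3 and 48.7, and in KO ezetimibe 349, 410, 414 and 317. No ezetimibe library overlapped a control library in either genotype, and KO control replicate 1 was the highest of the 7 control libraries. In KO mice it rose by 2.31 ± 0.31 (log2 difference of value + 1, SE), which is 4.96-fold, with a limma adjusted p of 0.00474. It passed in all 18 alternatives counted for this comparison, with adjusted p between 2.3e-08 and 0.0492. Fits without 1 WT library were also run and are not among the 18. Over the 18 alternatives the log2 difference ran from 2.01 to 2.82, with 2.10 by edgeR and 2.12 by DESeq2. The largest, 2.82 ± 0.22, was that without KO control replicate 1, against the 2.31 with it. In WT mice the log2 difference was 2.42 ± 0.28 (SE), 5.33-fold. Set against H2-K1 in the same library, H2-Q10 stood at 2.27 ± 0.70 counts per 1000 of H2-K1 in WT control and 8.53 ± 1.15 in WT ezetimibe (SD, n = 4 each), and at 3.29 ± 2.27 (n = 3) and 9.14 ± 0.81 (n = 4) in KO, so its mean level relative to H2-K1 was higher on ezetimibe as well.

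H2-Q10 is known as a liver product, and hepatocyte markers were set beside it. All 8 were in the table (4 passed the filter on low values) and summed to 51.6 to 674 in WT control, 73.0 to 168 in KO control, 32.5 to 116 in WT ezetimibe and 53.7 to 88.4 in KO ezetimibe. The 674 was WT control replicate 2 alone, and the other WT control libraries were at 51.6, 63.2 and 65.9, below WT ezetimibe replicates 1 and 2 (116 and 89.2) and above replicates 3 and 4 (44.3 and 32.5). In KO mice the ranges of the diets overlapped. Albumin was at 36.6 ± 10.7 in KO control (n = 3) and 34.0 ± 9.21 in KO ezetimibe (SD, n = 4). The part of liver RNA in the H2-Q10 values was not tested.

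H2-K2 (ENSMUSG00000067203, chr17:33974659-33978827, minus strand), the pseudogene beside H2-K1, had the second called difference. Its normalised counts were 70.7, 75.4, 71.1 and 67.2 in WT control, 82.8, 69.7 and 105 in KO control, 114, 117, 149 and 116 in WT ezetimibe and 197, 146, 183 and 150 in KO ezetimibe. Every ezetimibe library lay above every control library of either genotype. In KO mice it rose by 0.98 ± 0.16 (log2, SE), 1.97-fold, with a limma adjusted p of 0.0192. The call was lost without KO control replicate 1 (adjusted p = 0.115), KO control replicate 2 (0.0979) or KO ezetimibe replicate 3 (0.0710), with log2 differences of 0.96, 0.84 and 0.94. It was also lost with the groups compared alone. H2-K2 passed in 14 of its 18 alternatives, and the adjusted p ran from 3.57e-05 to 0.124. In WT mice the log2 difference was 0.79 ± 0.15.

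H2-Q4 (ENSMUSG00000035929, chr17:35379617-35385290, plus strand), a Q-region chain, was the third. It stood at 982, 883, 1049 and 790 in WT control, 525, 710 and 668 in KO control, 1322, 1661, 1409 and 1077 in WT ezetimibe and 1086, 1280, 1408 and 818 in KO ezetimibe. The KO control libraries were the lowest of all 15, and the diets did not overlap within either genotype. It rose by 0.84 ± 0.18 (log2, SE) in KO mice, 1.79-fold, with a limma adjusted p of 0.0482. That call is at the threshold: the adjusted p was 0.0562 with no filter on low values and 0.0542 with quantile normalisation. The call was also lost with the groups compared alone. It was lost without any one of 4 KO libraries as well (KO control replicates 1 and 2, KO ezetimibe replicates 2 and 3). H2-Q4 passed in 11 of the 18 alternatives counted, and the adjusted p ran from 0.00115 to 0.137. The WT log2 difference was 0.55 ± 0.17.

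The classical chains had smaller differences. H2-K1 (ENSMUSG00000061232, chr17:33996017-34000347, minus strand) stood at 34161, 25189, 30948 and 24635 in WT control, 25697, 27197 and 24928 in KO control, 38612, 41277, 42344 and 36342 in WT ezetimibe and 40145, 40583, 50059 and 33375 in KO ezetimibe. The diets did not overlap within either genotype. The log2 difference in KO mice was 0.65 ± 0.15 (SE; limma adjusted p = 0.0534, not called) and in WT mice 0.48 ± 0.14. H2-D1 (ENSMUSG00000073411, chr17:35262730-35267499, plus strand) ranged from 14619 to 17385 in KO control and from 17327 to 27774 in KO ezetimibe, where only the lowest library fell inside the control range. Its log2 difference was 0.46 ± 0.16 in KO mice (adjusted p = 0.111, not called) and 0.30 ± 0.15 in WT mice. H2-K1 made up 36.1% ± 1.21 of the counts of the 10 genes in WT control and 40.2% ± 0.75 in WT ezetimibe (SD, n = 4 each), and 35.2% ± 1.49 (n = 3) and 39.6% ± 0.85 (n = 4) in KO.

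Of the other Q-region genes, H2-Q7 (ENSMUSG00000060550, chr17:35439155-35443773, plus strand) had the second largest log2 difference in KO mice with a wide spread. Its values were 388, 330, 395 and 232 in WT control, 138, 191 and 204 in KO control, 487, 664, 661 and 483 in WT ezetimibe and 321, 395, 666 and 269 in KO ezetimibe. KO ezetimibe replicate 3 was well above the other 3 libraries of its group. The difference was 1.14 ± 0.26 (log2, SE; limma adjusted p = 0.0537, not called) in KO and 0.78 ± 0.24 in WT. H2-Q1 (chr17:35320405-35325099) and H2-Q2 (chr17:35342242-35346762), both on the plus strand, had the smallest differences among the Q-region genes. H2-Q1 was at 3970 ± 165 in KO control (SD, n = 3) and 4578 ± 537 in KO ezetimibe (n = 4), a log2 difference of 0.20 with a 95% interval from -0.11 to 0.51, and of -0.02 (-0.31 to 0.26) in WT. H2-Q2 was at 17215 ± 639 and 20789 ± 2023, a log2 difference of 0.27 (-0.02 to 0.56), and of 0.10 (-0.17 to 0.37) in WT. Neither was called, and the intervals bound the differences these libraries allow.

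Neither T-region gene was called. H2-T23 (ENSMUSG00000067212, chr17:36029773-36032855, minus strand) was at 6851 ± 609 in KO control (SD, n = 3) and 9113 ± 1529 in KO ezetimibe (n = 4), and at 7182 ± 1076 and 8766 ± 766 in WT (n = 4 each). Its log2 difference was 0.40 (95% interval 0.09 to 0.70; limma adjusted p = 0.122, not called) in KO and 0.30 in WT. H2-T3 (ENSMUSG00000054128, chr17:36185572-36190287, minus strand), the TL antigen gene, was at 2822 ± 402 in KO control and 3399 ± 420 in KO ezetimibe, and at 2944 ± 213 and 3352 ± 359 in WT. Its log2 difference was 0.27 (0.01 to 0.53; adjusted p = 0.199, not called) in KO and 0.18 in WT.

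**Figure D4:**
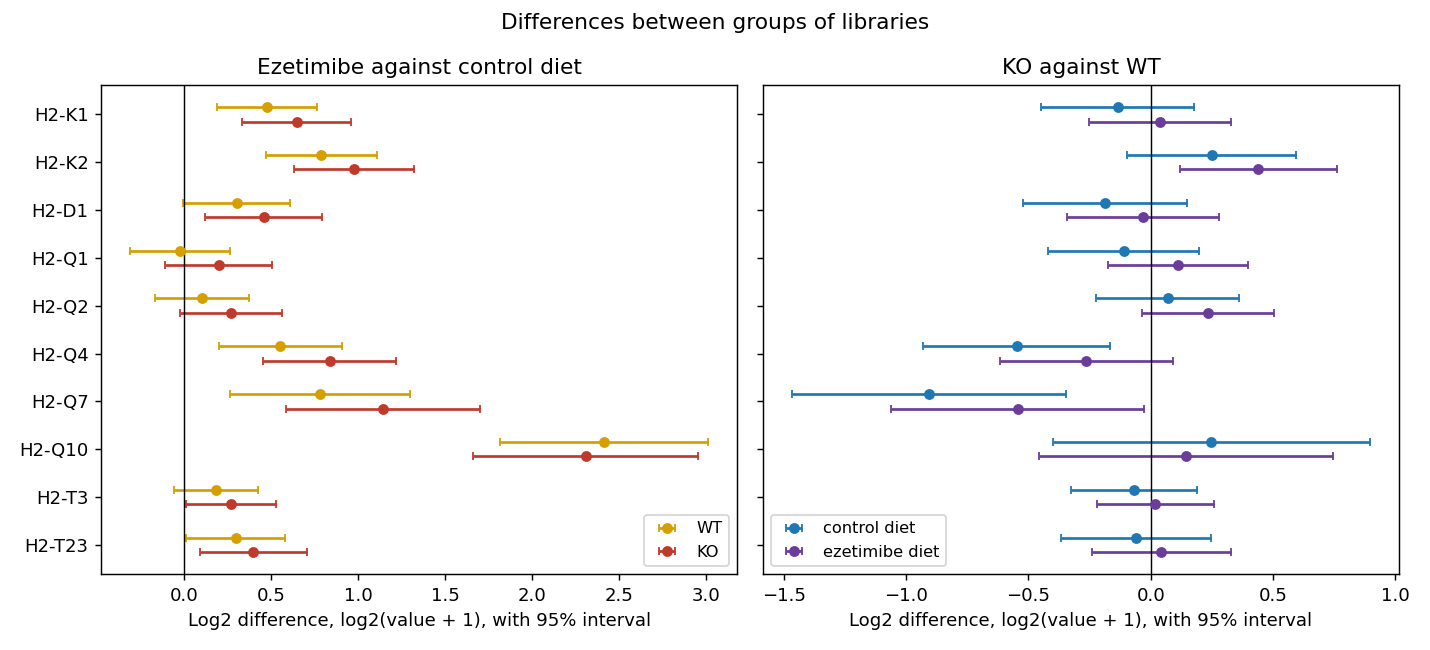
Log2 differences of the 10 class I genes with 95% intervals from the limma fit, for ezetimibe against control diet in WT and KO mice (left) and for KO against WT on each diet (right). H2-Q10 lies at 2.42 and 2.31 in the left plot, apart from the other genes, and in the right plot the points of H2-Q7 and H2-Q4 lie below 0 on both diets.

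The difference between the genotypes in their response to the diet contains the WT comparison that the choice of members used, so it is given as a description. Of all 14299 genes 0% passed by limma (0 genes, with 1004 at an unadjusted p under 0.05; edgeR gave 0 and DESeq2 5), 0 of the members among them, and nothing is read from that count. The difference of responses, KO minus WT, was -0.11 for H2-Q10 with a 95% interval from -0.99 to 0.78, and 0.36 for H2-Q7 (-0.40 to 1.12). For H2-K1 it was 0.17 (-0.25 to 0.60). The intervals are wide and do not show that the genotypes respond alike.

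KO against WT gave no called member on either diet. On the control diet 0.371% of 14299 genes were called by limma. Before adjustment 2 of the 10 members had a limma p under 0.05, both lower in KO mice, beside 2106 of the 14299 genes. That count is therefore not read as a result about the members. H2-Q7 was at 336 ± 75.0 in WT control (SD, n = 4) and 178 ± 34.8 in KO control (n = 3), a log2 difference of -0.91 ± 0.26 (SE; limma adjusted p = 0.122), and H2-Q4 was at 926 ± 113 and 635 ± 97.1, a log2 difference of -0.55 ± 0.18 (adjusted p = 0.166). For both genes every KO library lay below every WT library, as in 5.57% of all tested genes. H2-Q7 is in the authors' deposited table of control-diet results with a log2 fold change of -0.92 and an adjusted p of 0.0327, the only member among that table's 424 rows, and DESeq2 run on the recovered reads also passed it (adjusted p = 0.0322, in a range of 0.0184 to 0.380 over its 18 alternatives). The same KO control libraries serve as the control of the ezetimibe comparison in KO mice, so the low H2-Q7 and H2-Q4 values there enter both.

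H2-Q10 did not differ detectably between genotypes. Its log2 difference on the control diet was 0.25 (95% interval -0.40 to 0.90), and without KO control replicate 1 it was -0.27. On ezetimibe, where 0.00699% of genes were called, it was 0.14 (-0.46 to 0.74). The largest differences between genotypes on ezetimibe were those of H2-Q7, at -0.54 ± 0.24 (limma adjusted p = 0.290), and H2-K2, at 0.44 ± 0.15 (adjusted p = 0.238). The authors' deposited table for the ezetimibe diet, of 72 rows, lists none of the 10 genes.

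Of 15 genes for peptide supply and loading, 1 rose in ezetimibe-fed KO mice by limma and none fell (7 and 0 by DESeq2). Over all tested genes 0.434% were called higher by limma and 4.29% by DESeq2. All 15 log2 differences were above 0, and their median was 0.37. The gene called was Tapbp, which encodes tapasin: it was at 3554 ± 299 in KO control (SD, n = 3) and 4920 ± 614 in KO ezetimibe (n = 4), a log2 difference of 0.46 ± 0.10 (SE; limma adjusted p = 0.0479). B2m, the shared light chain, was at 25754 ± 3787 and 42116 ± 8449, a log2 difference of 0.70 ± 0.18 (adjusted p = 0.0582). Nlrc5, the transactivator of classical class I genes, was at 126 ± 48.3 and 494 ± 341, a log2 difference of 1.78 ± 0.43 (adjusted p = 0.0553). Tap1 (0.92), Tap2 (0.59) and the immunoproteasome gene Psmb8 (0.97) had log2 differences with adjusted p of 0.0902, 0.0656 and 0.0553. Without KO control replicate 1, none of the 15 was called, where limma called 4 of 14299 genes higher. The median was then 0.32 and Tapbp was at 0.40 (limma adjusted p = 0.116). In WT mice the log2 differences were 0.59 for Tapbp, 0.30 for B2m, 0.99 for Nlrc5, 0.82 for Tap1, 0.60 for Tap2 and 0.47 for Psmb8, with a median of 0.32 over the list, and 3 of the 15 were below 0, the chaperones Calr (-0.17), Pdia3 (-0.14) and Canx (-0.02).

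Of 14 upstream regulators none passed in KO mice by limma (7 had p under 0.05 before adjustment, and DESeq2 called 4 higher), 10 differences were above 0 and the median was 0.16. Over all tested genes, 3278 of 14299 had a limma p under 0.05 before adjustment, and DESeq2 called 4.29% higher. Irf2, another IRF gene, came nearest the threshold, at 0.38 ± 0.10 (log2, SE; limma adjusted p = 0.0563). The interferon-induced factor Irf1 had a log2 difference of 0.85 ± 0.30 (limma adjusted p = 0.119), and Rfx5, which binds class I and class II promoters, one of 0.64 ± 0.28 (adjusted p = 0.188). Of 21 interferon response genes, 2 rose by limma (Stat2 and Igtp) and none fell, beside 0.434% of all tested genes called higher. DESeq2 called 16 higher, beside 4.29% of all tested genes. Before adjustment 20 had a limma p under 0.05, beside 3278 of 14299 genes, and the median log2 difference was 1.08. Without KO control replicate 1, none of the 21 was called by limma, where 4 of 14299 genes were called higher, and the median was 1.27. Isg15, a ubiquitin-like interferon product, was at 439 ± 114 in KO control (SD, n = 3) and 948 ± 284 in KO ezetimibe (n = 4), and at 554 ± 127 and 1470 ± 356 in WT (n = 4 each). On ezetimibe the summed interferon genes ranged from 17095 to 25390 in WT libraries and from 10063 to 23866 in KO libraries, against 7911 to 12398 and 6546 to 10488 on the control diet.

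Other class I and class I-like genes were in the table for 13 of 20 symbols, and all 13 passed the filter on low values. H2-Q6, a Q-region neighbour of H2-Q7, was at 160 ± 33.6 in KO control (SD, n = 3) and 382 ± 121 in KO ezetimibe (n = 4), a rise of 1.21 ± 0.26 (log2, SE; limma adjusted p = 0.0490). For H2-Q6 the limma adjusted p between genotypes on the control diet was 0.115, and the authors' deposited table lists it as lower in KO on the control diet (log2 fold change -0.94, adjusted p = 0.0252). H2-Bl (0.59, adjusted p = 0.0553) and H2-Q5 (1.14, adjusted p = 0.0860) did not pass. Fcgrt, the heavy chain of the neonatal Fc receptor, was higher in KO than in WT on the control diet by 0.57 ± 0.11 (adjusted p = 0.0470), and not on ezetimibe (0.17, adjusted p = 0.389), and the difference of its responses to the diet was not called (adjusted p = 0.681). Without KO control replicate 1 neither was called, at 1.03 ± 0.29 for H2-Q6 between diets (adjusted p = 0.116) and 0.57 ± 0.13 for Fcgrt between genotypes (adjusted p = 0.241). Mr1, which presents vitamin metabolites, had the smallest unadjusted p of the list on ezetimibe and was not called (adjusted p = 0.223), with group means of at most 10.8.

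Libraries of the same group varied together across the members. KO ezetimibe replicate 3 was the highest of its group for 8 of 10 genes and replicate 4 the lowest for 7, and their summed interferon genes were 23866 and 10063, the extremes of that group. Replicate 3 also stood apart in ileal transport genes, with Fabp6 at 2535 against 107 to 321 in the other libraries of its group and Slc10a2 at 2811 against 1176 to 1536. WT ezetimibe replicate 3 was the highest of its group for 8 members and WT control replicate 4 the lowest for 7. Within KO ezetimibe, H2-K1 thus ran from 33375 to 50059, and H2-Q7 from 269 to 666.

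Markers of other cell types and of gut position were set beside the class I differences. Between the diets in KO mice, DESeq2 called 613 of 14288 genes higher and 542 lower, and limma 62 and 42 of 14299. Summed T and NK cell markers (12 of 12 tested, none called by limma and 2 higher by DESeq2) ranged from 3187 to 4099 in KO control and from 4193 to 5782 in KO ezetimibe, and from 4002 to 6623 and 5595 to 7588 in WT. Macrophage markers (6 of 6) ranged from 452 to 704 and from 86.4 to 273 in KO, with 1 of 6 called lower by limma (C1qc, log2 difference -1.77, adjusted p = 0.0479) and 4 by DESeq2. Without KO control replicate 1, C1qc was at -1.98 (adjusted p = 0.115). In WT mice macrophage markers ranged from 265 to 729 and from 175 to 361. MHC class II genes (7 of 7, none called by limma and 4 higher by DESeq2) ranged from 11021 to 38463 and from 35190 to 76646 in KO, and from 42318 to 57027 and 45106 to 61694 in WT. B and plasma cell markers (6 of 6, none called by limma or DESeq2) ranged from 10154 to 19279 and from 1400 to 15223 in KO, and from 4447 to 30969 and 3043 to 13634 in WT. The genes Lct and Gata4, which mark the proximal gut, summed to 22234 to 33392 in KO control and 39669 to 45258 in KO ezetimibe (none of 2 called by limma, 1 higher by DESeq2), and to 22539 to 32866 and 24741 to 33290 in WT. Most of that sum was Lct, at 27237 ± 6196 in KO control (SD, n = 3) and 40207 ± 2943 in KO ezetimibe (n = 4). Gata4 hardly differed, at 2060 ± 321 and 2097 ± 313. The 3 ileal genes summed to 1815 to 2325 and 1288 to 5384 in KO, and to 1170 to 1508 and 954 to 1464 in WT. No marker of these lists was at 0 in every library of a group, and their part in the class I differences was not tested.

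The genes whose profiles were nearest to each of 3 members were found by the root mean square difference of mean-centred log2 values over the 15 libraries, as a description. Nearest to H2-Q10 were Sqle (0.675), Cyp51 (0.698), Fdft1 (0.741) and Idi1 (0.750), all enzymes of cholesterol synthesis, and the gene model Gm20939 (0.763). The nearest member, H2-K2, was at 0.857, and H2-Q10 itself had a root mean square of 1.25, so none of these was close. Sqle was at 642 ± 220 in WT control, 855 ± 87.5 in KO control, 1579 ± 181 in WT ezetimibe and 2121 ± 487 in KO ezetimibe. The sterol sensor gene Insig1 was at 716 ± 169, 1306 ± 106, 1586 ± 185 and 2746 ± 219 (SD, n = 4, 3, 4 and 4). The means of both were higher in KO than in WT on each diet. H2-Q10 was at 63.9 ± 18.0 in WT control, 84.9 ± 57.9 in KO control, 337 ± 38.6 in WT ezetimibe and 373 ± 47.3 in KO ezetimibe. Its higher mean in KO control rests on replicate 1 (152), and the other libraries (54.3 and 48.7) lay below the WT control mean. Without that replicate the log2 difference of H2-Q10 between genotypes on the control diet was -0.27. Abca1, the liver X receptor target that exports cholesterol, fell by 2.46 (log2) in KO mice on ezetimibe (limma adjusted p = 1.86e-05).

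H2-K1 had other neighbours in profile. Nearest to it were Tap2 (0.120), which encodes a subunit of the peptide transporter, Trafd1 (0.123), Rnf19b (0.132), Mocos (0.140) and Ube2l6 (0.142), the conjugating enzyme for ISG15, beside a root mean square of 0.320 for H2-K1 itself. The members nearest to it were H2-D1 (0.121) and H2-T23 (0.134). For H2-T3 the nearest were Armc8 (0.0666), Cables2 (0.0802), Madd (0.0872), Plcb3 (0.0893) and Cyld (0.0958), beside 0.179 for H2-T3 itself. H2-Q10 was at least 0.857 from every other member, and H2-D1 and H2-T23 were the closest pair at 0.0865.

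**Figure D5:**
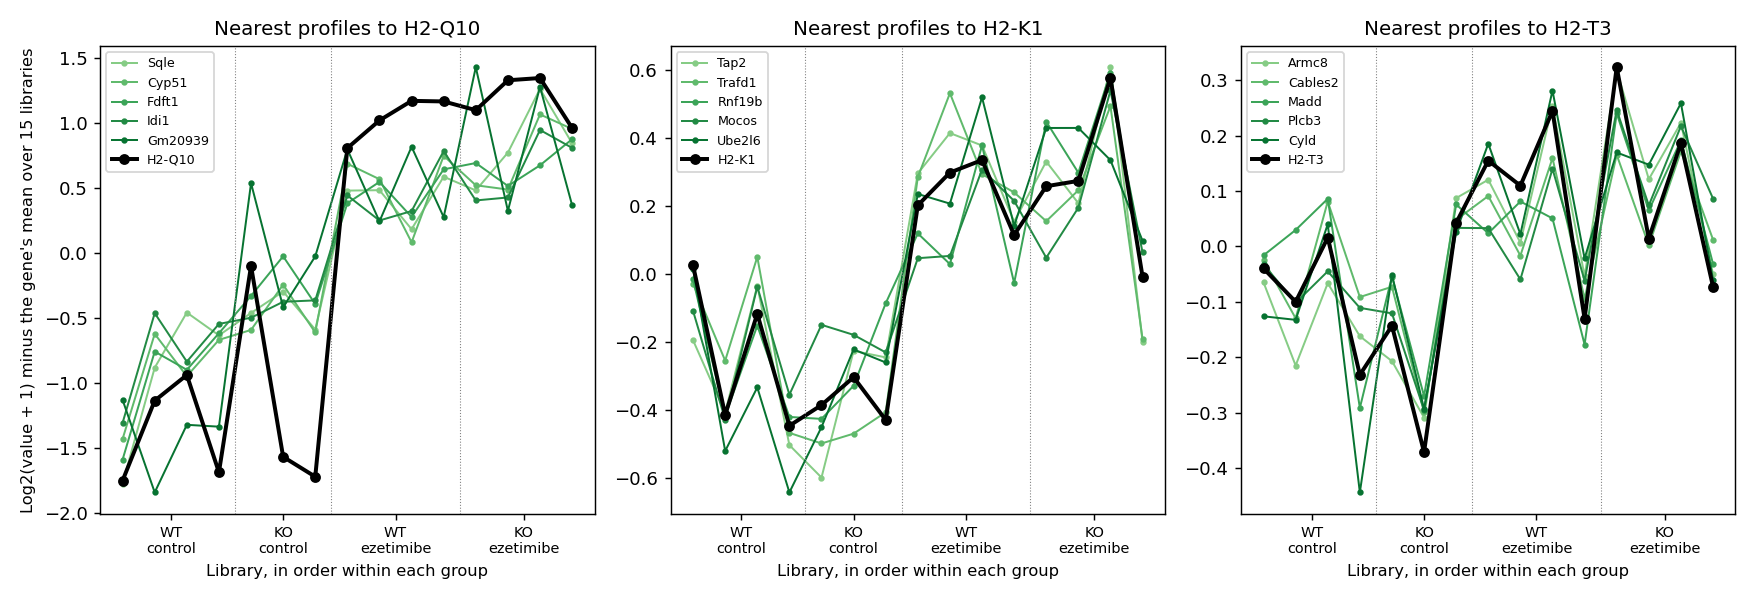
Log2(value + 1) minus the gene's mean over 15 libraries, for H2-Q10, H2-K1 and H2-T3 (black) and the 5 genes nearest to each (shades of green), with libraries along the horizontal axis in 4 groups. H2-Q10 and its neighbours stand higher on ezetimibe, and the vertical scale differs between the 3 plots.

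The neighbourhood on the chromosome was described as well. Over all genes, limma called 104 of 14299 between the diets in KO mice. Within 100 kb of H2-Q10, 7 tested genes were found, of which 2 were called, the class I genes H2-Q6 and H2-Q4. Not called were H2-Q7 (1.14, limma adjusted p = 0.0537), Gm11131 (1.09, adjusted p = 0.0574) and H2-Q5 (1.14, adjusted p = 0.0860). The non-class I genes Tcf19 (0.76, adjusted p = 0.278) and Cchcr1 (0.06, adjusted p = 0.901) were not called either. Within 100 kb of H2-K2, 1 of 16 tested genes was called, Tapbp at 45367 bases, and the nearest gene, Vps52 at 7624 bases, had a log2 difference of 0.01 ± 0.10. Not called were H2-K1 at 17190 bases (0.65, limma adjusted p = 0.0534) and Rps18 at 18658 bases, which was lower (-1.01, limma adjusted p = 0.0574).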

How the data were processed

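Total RNA of frozen distal jejunum was made into NEBNext Ultra II libraries, per the labels' protocols. FastQC, STAR 2.6.0c, mm10 and DESeq2 are named, per the submitters' processing notes; a read counter, strand setting or annotation was not stated in the sources used here. The deposited table holds DESeq2-normalised counts, a signal, per the file headers, with 100% of values whole multiples of 1 read in each library. The authors' 2 deposited comparison tables hold log2 fold changes, p-values, a Wald score, a fold change (ratio) and a mean signal, per the file headers.

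The members and gene lists were chosen with earlier results of these data known. The 14299 genes at 10 or more in 3 libraries were tested on log2(value + 1) by limma 3.58.1 (trended moderation), all 15 libraries in 1 fit, Benjamini-Hochberg adjustment and a threshold of 0.05; called means past it. The added 1 makes the log2 differences of low genes smaller. For H2-Q10 in KO mice the log2 difference on this scale, 2.31, was nonetheless above those of edgeR (2.10) and DESeq2 (2.12). Count tests on the recovered reads (edgeR 4.0.16, DESeq2 1.42.0) were alternatives, beside other pseudocounts (0.5, 5), filters, scalings, groups alone, robust moderation, the replicate number as a block and each library left out. For the members, a fit without 1 library was counted only where that library belonged to a compared group. The tests were tried on simulated data first. The labels do not say that each library is a separate mouse; p-values then measure the spread between these samples, which may be technical.

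Named genes are the 10 members, 6 loading genes, 3 regulators (1 of them is not reported here), up to 5 other class I genes with the smallest p, Isg15, the targeted genes, Abca1 and Insig1, and the 5 nearest profiles of 3 members. Irf2, Stat2, Igtp, C1qc, Alb, Calr, Pdia3, Canx, Fabp6, Slc10a2, Lct, Gata4, Tcf19, Cchcr1, Vps52 and Rps18 were chosen after their values were seen. Coordinates are from GENCODE M21 (mm10), and promoters from RefSeq (GRCm38.p6, the same assembly). R 4.3.3, Python 3.11.15 and matplotlib 3.10.9 were used.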

Additional observations from a re-analysis of the deposited data

Results flagged for a closer look

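H2-K2 in 1 WT ezetimibe library (replicate 3) stood at 149, well above the nearest of the other 3, at 117, with a gap of 0.905 of the group's range. This was the only one of 30 sets of 4 libraries (10 genes in 3 groups) that stood out in this way, and chance alone gives about 1 in 20.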

How the results depend on the processing

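For ezetimibe in KO mice, 3 members were called, where 62 of 14299 genes were called higher. The number was 5 with a mean of at least 50 (over all genes, 179 of 10088 higher) and 6 with DESeq2 (613 of 14288). It was 9 with the replicate block (1012 of 14299) and 1 with the groups compared alone (13 of 14299). With 1 KO library left out it was 1 to 6 (4 to 278 of 14299). Between genotypes on the control diet, 0 members were called, 1 with DESeq2 (H2-Q7), 2 with the replicate block (H2-Q4 and H2-Q7), and 0 in each fit without 1 library of the compared groups. The cause was not tested. On the ezetimibe diet and for the difference between responses, 0 were called in every alternative counted. The median WT difference of the members stayed within 1 SD of its value. The replicate numbers were not used as pairs in the main fit. Same-numbered libraries had deviations with r between -0.242 and 0.331 over 21 pairs, of which 12 were over 0.1. Of 15 libraries, 2 matched best with their own number. These values do not settle whether the numbers pair the libraries. The differences that changed sign were not called under any alternative. With quantile normalisation, KO against WT on ezetimibe became -0.21 for H2-K1, -0.0334 for H2-Q1, -0.10 for H2-T3 and -0.11 for H2-T23. With 1 library left out, it ran from -0.0629 to 0.13 for H2-K1, -0.14 to 0.0834 for H2-D1, -0.0568 to 0.0801 for H2-T3 and -0.0288 to 0.17 for H2-T23; on the control diet from -0.22 to 0.0225 for H2-Q1, -0.0388 to 0.15 for H2-Q2, -0.27 to 0.54 for H2-Q10, -0.17 to 0.0386 for H2-T3 and -0.13 to 0.0149 for H2-T23. Over all genes, the number called in KO mice on ezetimibe was 104, 5 to 456 with 1 library left out, 97 with edgeR, 1155 with DESeq2 and 1915 with the replicate block; for KO against WT it was 53 on the control diet (edgeR 12, DESeq2 442, replicate block 231) and 1 on ezetimibe (DESeq2 86, replicate block 6). H2-K2 and H2-Q10 have the fewest reads of the set, so depth limits them most.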
